A study of Homo sapiens with 11 samples.

Results

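Mucin-type O-glycosylation builds sugar chains on serine and threonine in the Golgi. GALNT enzymes attach the first sugar, N-acetylgalactosamine, and core enzymes and capping enzymes then extend, branch or stop the chain. Secreted and membrane mucins carry most of these chains, and pancreatic ductal cells and the tumours that arise from them are known for abundant mucin with altered, often truncated chains. The 10 genes described here were chosen by name from this pathway: the initiating enzymes GALNT3, GALNT5, GALNT7, GALNT10 and GALNT12, the core 1 galactosyltransferase C1GALT1, the branching enzymes GCNT1 and GCNT3, the extending enzyme B3GNT3 and the sialyltransferase ST6GALNAC1. They are 10 of 20037 protein-coding genes in the RefSeq table. They were chosen with earlier results of these data known, so counts of them beside all genes are descriptive only. For each gene, peaks were taken whose summit lay within the GRCh38 gene span plus 50 kb on each side, and this stretch is called its window.

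The study asked how pancreatic ductal adenocarcinoma cells use MYRF (myelin regulatory factor), a transcription factor that sits in the membrane of the endoplasmic reticulum until its DNA-binding part is cut free. Its 10 peak lists come from 5 groups of 2 ChIP-seq libraries, a method that sequences DNA bound to a chosen protein. MYRF was precipitated, with an antibody that the submitters made, from 2 unmodified human lines, CFPAC1 grown in IMDM and HPAF2 grown in RPMI. FOS, one of the proteins that form AP-1, was precipitated from a clonal CFPAC1 control line that had been infected with lentiCRISPRv2. H3K27ac, a histone mark of active promoters and enhancers, was precipitated from CFPAC1 control clone cells and from a CFPAC1 clone infected with the same plasmid carrying wild-type Cas9 and a guide against MYRF. Control and knockout are each a single clone, so loss of MYRF and differences between clones cannot be told apart, and the peak lists cannot show whether the MYRF gene was disrupted. The labels do not say that replicates were separate cultures, and the p-values given here then measure only a spread that may be technical.

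CFPAC1 MYRF lists held 4743 and 4041 peaks, HPAF2 MYRF lists 3702 and 4326, FOS lists 29087 and 36349, and H3K27ac lists 107586 to 116466. Read depths are unknown. The knockout H3K27ac lists covered 0.924 times as much sequence as the control lists, and the first knockout list alone covered 0.874 times as much as the first control list. All 8 ductal epithelial marker genes (EPCAM, CDH1, KRT7, KRT8, KRT18, KRT19, SOX9 and MUC1) had an H3K27ac peak within 1 kb of a gene end in all 4 libraries. Of 14 marker genes of other cell types, 7, among them PTPRC, CDH5 and INS, had none in any library, and CD3E and COL1A1 had one in all 4. The other 5, PECAM1, COL1A2, PDGFRB, CPA1 and CELA3A, had one in some libraries. CPA1 had its peak in both control libraries and neither knockout library.

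The promoters show the settings in which these genes sit, and 4 are printed because they span the range of marks described below. RefSeq promoter sequences of build GRCh38.p14, from 250 bases before to 50 bases after a start site, were at hand for 8 of the 10 genes (11 start sites) and not for GALNT5 or ST6GALNAC1. GCNT3 is printed for the FOS peak over its start, B3GNT3 for its broad acetylated domain with MYRF sites just downstream, GALNT7 for its strong acetylation, and GALNT12 for a weak H3K27ac peak in 1 library only. Capitals mark a match to TGANTCA, the known recognition letters of AP-1, and the other letters are in lower case.
GCNT3 promoter (chr15:59611533-59611832, + strand): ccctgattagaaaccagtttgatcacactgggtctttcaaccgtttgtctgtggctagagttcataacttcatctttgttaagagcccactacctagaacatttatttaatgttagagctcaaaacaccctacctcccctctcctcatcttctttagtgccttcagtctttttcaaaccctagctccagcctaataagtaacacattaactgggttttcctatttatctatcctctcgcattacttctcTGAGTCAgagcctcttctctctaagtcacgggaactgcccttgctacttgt
B3GNT3 promoter (chr19:17794888-17795187, + strand): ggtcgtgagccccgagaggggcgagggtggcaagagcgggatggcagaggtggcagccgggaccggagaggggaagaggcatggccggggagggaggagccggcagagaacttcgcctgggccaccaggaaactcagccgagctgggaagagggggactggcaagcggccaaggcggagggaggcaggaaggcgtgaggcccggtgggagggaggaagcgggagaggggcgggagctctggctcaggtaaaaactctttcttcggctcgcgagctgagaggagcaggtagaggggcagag
GALNT7 promoter (chr4:173168561-173168860, + strand): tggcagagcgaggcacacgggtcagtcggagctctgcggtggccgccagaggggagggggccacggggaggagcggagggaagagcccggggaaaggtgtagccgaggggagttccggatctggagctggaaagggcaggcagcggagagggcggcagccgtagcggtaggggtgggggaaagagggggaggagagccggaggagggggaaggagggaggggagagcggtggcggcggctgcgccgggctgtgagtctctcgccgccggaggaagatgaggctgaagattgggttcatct
GALNT12 promoter (chr9:98807420-98807719, + strand): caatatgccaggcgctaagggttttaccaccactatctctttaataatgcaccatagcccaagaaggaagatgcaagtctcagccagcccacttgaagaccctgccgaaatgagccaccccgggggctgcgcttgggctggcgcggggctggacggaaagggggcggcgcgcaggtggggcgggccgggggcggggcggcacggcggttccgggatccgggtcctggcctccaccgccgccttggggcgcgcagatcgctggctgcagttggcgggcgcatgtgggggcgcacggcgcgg
G+C content was 42.3% in the GCNT3 promoter, 68.3% in B3GNT3, 69.7% in GALNT7 and 68.7% in GALNT12, and over the 11 promoters it ran from 38.3% at one GCNT1 start to 81.0% at GALNT10. TGAGTCA in GCNT3, beginning 1 base before the start site, was the only match to TGANTCA among the 11 promoters. Searched on both strands, TGANTCA occurs in 7.71% of 35116 RefSeq promoters of the same length. Neither CTGGCAC nor CTGGTAC, the known recognition letters of MYRF, occurred in the 11 windows on either strand, and 7.21% of all promoters hold one of them. These are matches of letters only, and no MYRF peak of any library lay over any of the 11 windows.

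MYRF peaks lay in the windows of 4 of the 10 genes in CFPAC1 and of 6 in HPAF2, counting a peak when the other replicate of that line had a peak overlapping it by at least 1 bp. GALNT7, GALNT10, B3GNT3 and ST6GALNAC1 had one in both lines, and GCNT1 and GCNT3 had one in HPAF2. Over all protein-coding genes the share was 16.6% in CFPAC1 and 16.6% in HPAF2. A site shared by both lines was present at 4 of the 10 genes and at 9.19% of all genes. Of 40 other genes of the pathway, 2 had a shared site. The 10 genes were chosen with earlier results of these data known, and the effect of that choice on these counts was not tested. The median window was 154 kb for these genes and 124 kb for all genes, and a longer window can hold more peaks. GALNT3, GALNT5, GALNT12 and C1GALT1 had no MYRF peak in any library. With windows of 10 kb the same 4 genes kept a shared site, against 4.23% of all genes.

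Each MYRF site is given by the fold enrichment over background that the authors' peak caller reported, and by its percentile, the share of peaks in that library's own list with the same or a lower fold. At B3GNT3, which extends core 1 chains with N-acetylglucosamine, a site at chr19:17797280-17798021, inside the gene and 2570 bp downstream of the start, had folds of 17.7 and 19.1 in CFPAC1 and 15.5 and 15.0 in HPAF2. Its percentiles were 96.2 and 96.5 in the CFPAC1 lists and 94.2 and 93.5 in the HPAF2 lists, the highest of the 13 MYRF sites in every library. A weaker site 1569 bp downstream of the start, at chr19:17796412-17796853, had folds of 6.27, 4.12, 4.27 and 3.79 in the same order of libraries, and its percentiles ran from 11.7 to 69.7. A further site in the window, at chr19:17757283-17757645, lay inside the neighbouring gene FCHO1, 37678 bp upstream of B3GNT3. It had folds of 9.09 and 8.2 in CFPAC1 and 6.93 and 8.0 in HPAF2. With only peaks of -log10 q of at least 10, B3GNT3 alone of the 10 genes kept a shared site, against 4.18% of all genes.

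GALNT10, an initiating enzyme, had its shared site inside the gene 7658 bp downstream of the start, at chr5:154198099-154198606. Its folds were 10.5 and 9.4 in CFPAC1 (percentiles 89.7 and 86.3) and 6.06 and 9.73 in HPAF2 (63.7 and 85.9). The HPAF2 replicates differed more from each other than the CFPAC1 ones did. A further site at chr5:154309843-154310162, also inside GALNT10, was listed in the second CFPAC1 library only, with a fold of 4.85.

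GALNT7 acts on peptides that already carry a first sugar, and its site lay deep in the gene, 83749 bp downstream of the start at chr4:173252380-173252690. The folds were 5.94 and 7.25 in CFPAC1 (percentiles 65.4 and 76.8) and 5.01 and 4.94 in HPAF2 (43.1 and 39.9). It ranked in the middle of the HPAF2 lists.

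ST6GALNAC1 adds sialic acid to the first sugar and so makes the sialyl-Tn antigen. Its shared site lay inside the gene, 2137 bp from one gene end, at chr17:76641433-76641900. Folds were 4.62 and 5.43 in CFPAC1 (percentiles 37.0 and 53.3) and 4.11 and 7.42 in HPAF2 (20.2 and 75.3), so the HPAF2 replicates placed it very differently. When summits had to lie within 200 bp of each other, ST6GALNAC1 no longer had a CFPAC1 or a shared site. A second site in this window, at chr17:76671070-76671519, was reproducible in HPAF2 alone with folds of 5.62 and 6.72. It lay 1285 bp from an end of MXRA7, outside ST6GALNAC1.

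The core 2 branching enzymes had reproducible MYRF sites in HPAF2 and not in CFPAC1. GCNT3, the mucin-type enzyme that makes core 2 and core 4 branches, had sites 24543 bp and 17125 bp upstream of its start. At chr15:59587029-59587621 the HPAF2 folds were 6.57 and 7.31 (percentiles 68.6 and 74.1), and at chr15:59594460-59594964 they were 5.69 and 5.3 (57.2 and 49.7). Between them, a site at chr15:59591405-59591645 was listed in 1 library of each line, with a fold of 3.01 in the first CFPAC1 library and 5.95 in the second HPAF2 library. GCNT1, the leukocyte-type core 2 enzyme, had its HPAF2 site at chr9:76366195-76366626, with folds of 10.7 and 9.58 (percentiles 88.2 and 85.6). That site lay 27504 bp upstream of GCNT1 and closer to PCSK5, 3390 bp from its end. The difference between the lines was not tested: a site missing from a list may lie below its calling threshold, and the lines also differ in medium.

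When each peak was assigned to the gene with the nearest end, 3 of the 10 genes kept a CFPAC1 site, against 7.17% of all genes under the same rule, and 4 kept an HPAF2 site, against 7.15%. GALNT7 and GCNT1 lost theirs under this rule: the GALNT7 site lay over 50 kb from either end of its gene, and the GCNT1 site was nearer to PCSK5.

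**Figure D1:**
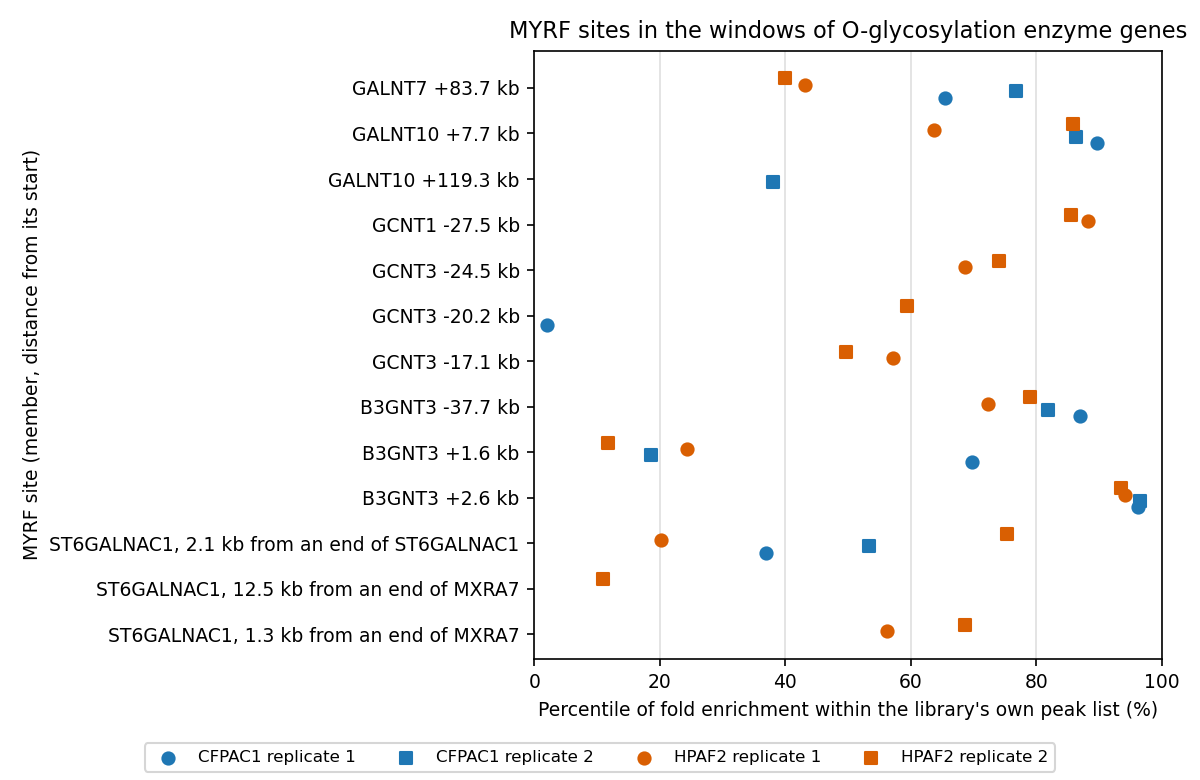
Percentile of each MYRF peak's fold enrichment within its own library's list (x axis, percent) for the 13 sites in the windows of the 10 genes (y axis, named by gene and distance from its start or from a gene end in kb); circles and squares are replicates 1 and 2, colours are lines, and a missing point means no peak. The B3GNT3 site at 2.6 kb lies above 93 percent in all 4 libraries, and the GCNT1 site and the outer GCNT3 sites have points from HPAF2 alone.

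FOS peaks were far more common. In the CFPAC1 control clone 9 of the 10 genes had a FOS peak overlapped by one of the other replicate, as did 67.7% of all genes, so this count says little about these genes. The exception was GALNT12, an initiating enzyme, with a single peak in the first library only. The windows held 35 FOS sites present in both libraries and 21 present in 1, of which 19 were in the second, longer list. The number of sites in both libraries ran from 1 at B3GNT3 to 10 at GALNT10, or from 0.842 to 3.61 per 100 kb of window among the 9 genes, with GCNT3 the densest.

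The strongest FOS site lay in GALNT7, at chr4:173252134-173252948, over the MYRF site described above. Its folds of 25.7 and 29.2 were at percentile 99.8 of both FOS lists, although the MYRF peak at the same place ranked between 39.9 and 76.8. GALNT7 had 7 FOS sites in both libraries, with mean percentiles of at least 58.1.

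At GALNT5, another initiating enzyme, which had no MYRF peak, a site at chr2:157246130-157247067, 10915 bp from a gene end, had FOS folds of 13.5 and 15.5 (mean percentile 95.8). A second site inside the gene, at chr2:157261016-157261738, had folds of 5.95 and 7.97. GALNT10 had FOS folds of 11.6 and 13.1 over its shared MYRF site, at chr5:154197985-154198945, and of 11.5 and 12 at chr5:154214061-154215178, where no MYRF peak was listed. Another GALNT10 site, 420 bp upstream of the start, had folds of 8.75 and 9.65.

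C1GALT1 makes the core 1 disaccharide on which most longer chains are built, and it had no MYRF peak. Its leading FOS site, at chr7:7176466-7177503, lay 5334 bp upstream of the start in the promoter table and had folds of 10.3 and 12.5 (mean percentile 91.1). At ST6GALNAC1, FOS folds were 9.66 and 13.6 at chr17:76641353-76641895, over the shared MYRF site, and 11.8 and 11.9 at chr17:76601999-76602345, 15246 bp from a gene end. B3GNT3 had 1 FOS site in both libraries, at chr19:17796926-17798007 over its strongest MYRF site, with folds of 8.37 and 9.65. The highest-ranked sites of the remaining genes were weaker. GCNT1 reached 7.19 and 8.96, GALNT3, an initiating enzyme, reached 7.37 and 7.02, and GCNT3 reached 6.65 and 7.29.

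The GCNT3 site lay 67 bp upstream of its start, at chr15:59611386-59611989, over the printed promoter with its capitalised TGAGTCA. It was the only one of the 11 promoter windows under a FOS peak in both libraries, and 4.90% of 22199 protein-coding promoters were. The GALNT10 promoter was under a FOS peak in the second library only.

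MYRF and FOS peaks often lay at the same place. Of the 6 MYRF sites shared by both lines in these windows, 4 overlapped a FOS peak present in both libraries, at GALNT7, GALNT10, ST6GALNAC1 and the strong B3GNT3 site. Over the genome 73.7% of 1282 shared MYRF sites did so. Of the 4 sites reproducible in HPAF2 alone, 3 overlapped FOS (1 at GCNT1 and 2 at GCNT3), against 49.7% of 1605 such sites. FOS was measured in CFPAC1 cells, so these HPAF2 sites carried FOS in a line where no reproducible MYRF peak was listed. The weaker B3GNT3 site and the site in FCHO1 had no FOS peak.

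**Figure D2:**
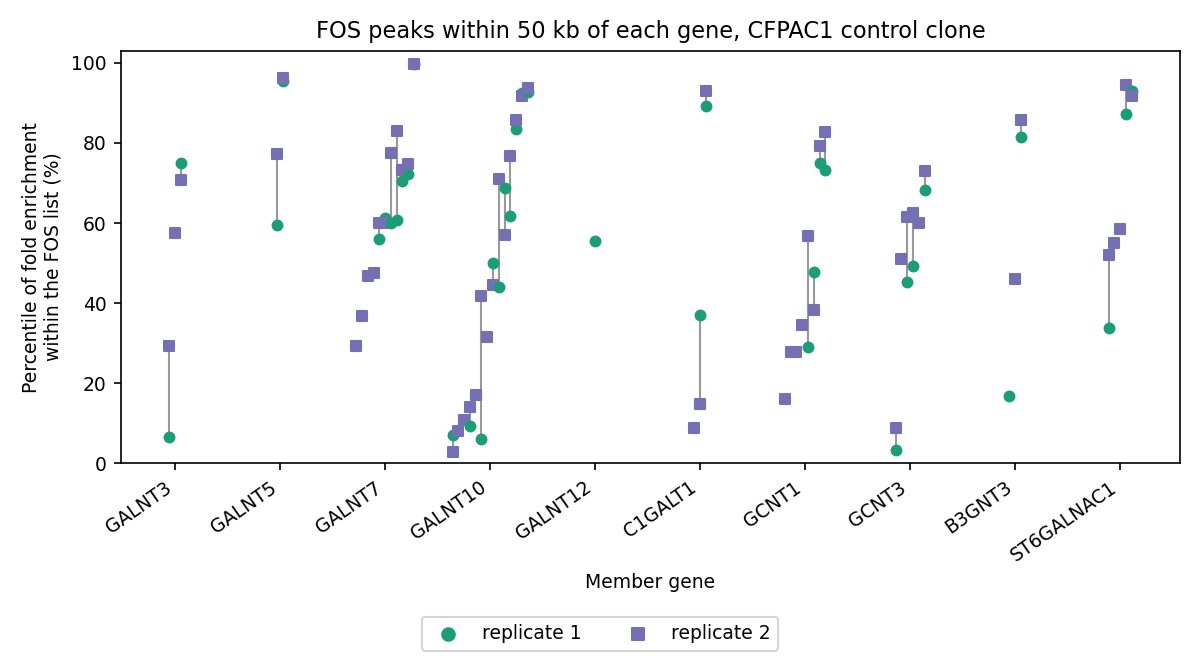
FOS sites in the windows of the 10 genes, by gene (x axis) and percentile of fold enrichment within the library's own list (y axis, percent), with circles for replicate 1, squares for replicate 2 and a line joining the replicates of 1 site. The GALNT7 site at percentile 99.8 leads, GALNT12 has a single point, and most points without a partner are squares.

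H3K27ac was compared between the CFPAC1 clones by the number of base pairs that peaks covered in each window. A gene was called lower or higher when both knockout libraries lay below or above both control libraries. With 2 libraries against 2, the smallest two-sided exact permutation p is 0.333, so no single gene could reach significance. The call was lower for 2 of the 10 genes, GALNT7 and ST6GALNAC1, against 22.3% of all genes, and higher for 1, GALNT5, against 9.02%. These shares are close to those of all genes. Bases inside the window alone gave the same 3 genes, with 22.4% lower and 8.91% higher among all genes. Dividing by the total length of each list shifted log2 ratios up by 0.11 and left none of the 10 genes lower and GALNT5 higher, with 10.0% of all genes lower and 18.7% higher. The lower calls at GALNT7 and ST6GALNAC1 were thus lost with this scaling.

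ST6GALNAC1 windows had 13869 and 17371 bp covered in the control clone, against 13765 and 12325 bp in the knockout clone. The ratio of means was 0.835 (two-sided exact permutation p = 0.333), and the first libraries of the clones, at 13869 and 13765 bp, were nearly alike. GALNT7 had 40471 and 35811 bp in the control clone, against 33725 and 35051 bp in the knockout clone, a ratio of 0.902 (exact permutation p = 0.333). GALNT5 had 12478 and 12528 bp in the control clone, against 14476 and 12685 bp in the knockout clone, a ratio of 1.09 (exact permutation p = 0.333). In all 3 genes the groups did not overlap, but the nearest libraries were close.

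The other 7 genes overlapped between clones. GALNT10 had the lowest ratio, 0.773, with 57469 and 45093 bp in the control clone, against 31829 and 47457 bp in the knockout clone. One knockout library lay between the control libraries, and the ratio was 0.925 without the first knockout library and 0.621 without the second. GCNT3 had the highest ratio, 1.37, with 16772 and 16076 bp in the control clone against 29754 and 15376 bp in the knockout clone. Here 1 library decided the value: the ratio was 0.936 without the first knockout library and 1.81 without the second. GALNT3 had 4788 and 3744 bp in the control clone, against 3909 and 3709 bp in the knockout clone, the smallest mean coverage of the 10 genes in either clone, at a ratio of 0.893. GCNT1 had 11476 and 12536 bp against 8916 and 12671 bp, and B3GNT3 had 13905 and 17254 bp against 14884 and 13120 bp, both with a ratio of 0.899. C1GALT1 had 9051 and 5904 bp against 9243 and 7741 bp (ratio 1.14), and GALNT12 had 3863 and 6723 bp against 7831 and 4721 bp (ratio 1.19). In each of these 5 genes the replicates of at least 1 clone lay further apart than the means of the clones. Over the 10 genes the median ratio was 0.901, with 6 genes below 1. Over 17799 genes with a control peak the median was 0.959, and 62.4% were below 1.

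In the GCNT3 window, 6600 bp of the 29754 bp of the first knockout library lay in 19 regions that no other library listed. The remaining 23154 bp lay in regions that other libraries listed too, where those libraries covered 15376 to 16772 bp, so wider peaks made up part of the excess as well. None of the other 3 libraries had a region of its own there. Among 10013 genes with at least 5000 bp covered in every H3K27ac library, 0.429% had a ratio between the knockout replicates as high as the 1.94 of GCNT3. At GALNT10 the imbalance ran the other way, with a ratio of 0.671 between the knockout replicates and 13 regions listed in the first control library alone. 3.02% of those genes had a ratio as low. The first knockout list covered less sequence in all than the first control list, so its excess at GCNT3 went against its total, and the cause was not tested.

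**Figure D3:**
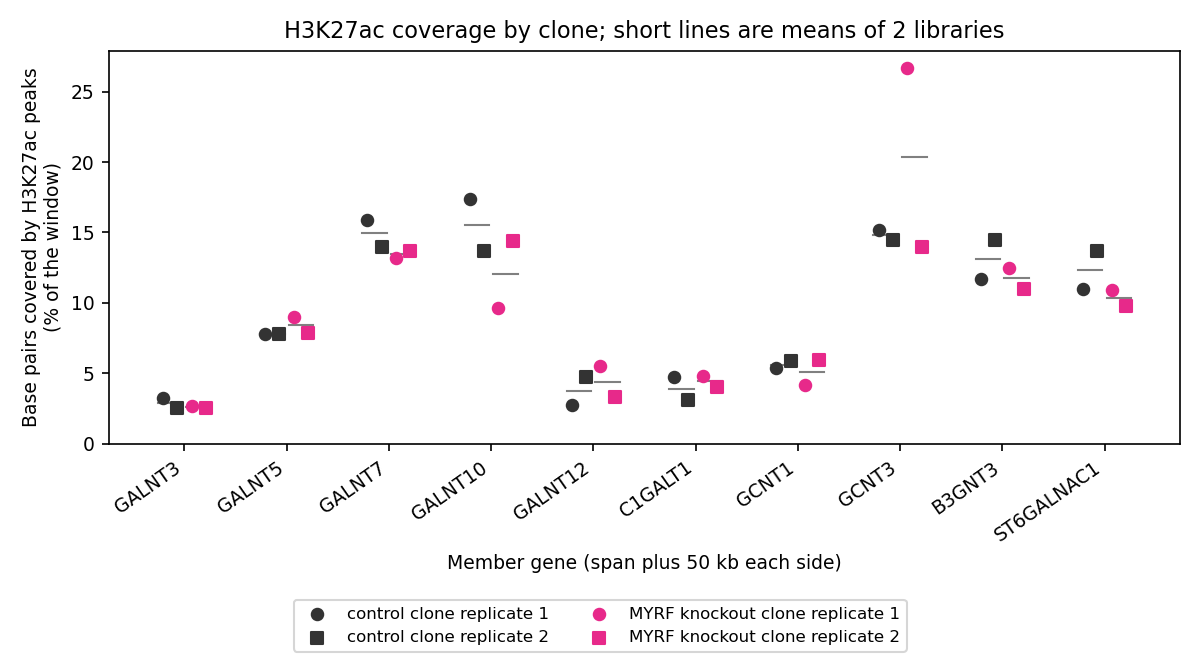
Share of each window covered by H3K27ac peaks (y axis, percent) for the 10 genes (x axis) in the control clone (dark) and the MYRF knockout clone (pink), with circles for replicate 1, squares for replicate 2 and short lines for the mean of 2 libraries. The first knockout library stands at 26.7 percent at GCNT3, where the other 3 lie between 14 and 15.2, and the clones overlap at 7 of 10 genes.

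Peaks of the 4 H3K27ac lists were merged into regions, and a region was called lost when both control libraries and neither knockout library had it, gained in the opposite case, kept when all 4 had it, and mixed otherwise. The 10 windows held 253 regions, of which 100 were kept, 3 lost, 3 gained and 147 mixed. That is 39.5% kept, 1.19% lost, 1.19% gained and 58.1% mixed. Of all 134465 regions, 40.2% were kept, 3.51% lost, 1.70% gained and 54.6% mixed. Of the mixed regions in these windows, 93 were in a single library (63.3%, against 62.2% of all mixed regions). A lost region lay in the windows of 3 of the 10 genes, against 21.9% of all genes, and a gained region in 3, against 15.3%.

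The 3 lost regions were weak peaks. At ST6GALNAC1 the region chr17:76622937-76623478, inside the gene and 5805 bp from its end, had control folds of 3.83 and 3.93. The GALNT10 region, chr5:154223885-154224286, lay 33352 bp downstream of the start with control folds of 3.81 and 2.95. The GALNT7 region, chr4:173120220-173120685, lay 48401 bp upstream of the start with folds of 5.09 and 3.77. Their control percentiles ran from 3.68 to 46.8.

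The 3 gained regions were as weak. At GALNT12 the region chr9:98807080-98807514, 456 bp upstream of the start, had knockout folds of 3.4 and 3.85, and only the peak of the first knockout library reached into the printed promoter. The C1GALT1 region, chr7:7175034-7175357, had folds of 3.4 and 4.86. The GALNT7 region, chr4:173230680-173231320, lay inside the gene with folds of 4.83 and 3.65. None of the 6 lost and gained regions overlapped a reproducible MYRF or FOS peak. With regions merged across gaps of up to 500 bp, no lost region and 1 gained region, at GALNT12, were left. Of all genes, 11.9% then had a lost region and 8.66% a gained one.

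The acetylated regions named next were taken from the kept ones, so their presence in both clones follows from that class. B3GNT3 had a 4671 bp region over its start and over the 2 MYRF sites inside it, chr19:17793899-17798569, with folds of 20.7 and 22.9 in the control clone, against 27 and 15.5 in the knockout clone. GALNT7 had folds of 25.2 and 27.2 in the control clone, against 25.6 and 25.1 in the knockout clone over its start, chr4:173167542-173169138. GCNT3 had 14.7 and 34.3 against 21.3 and 30.8 over its start, chr15:59611225-59614477, with a wide spread between the control replicates. Such folds come from lists made separately and rank a peak in its own list, so no change was read from them.

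ST6GALNAC1 had a kept region at chr17:76642074-76644574 with folds of 20.1 and 22.2 in the control clone, against 15.6 and 16.9 in the knockout clone. GALNT5 had a region of 6298 bp at chr2:157256630-157262927, with 14.9 and 20.5 against 11.7 and 19.9. GALNT3 had 14.8 and 17.2 against 16.5 and 9.78 at chr2:165790831-165795141, which spans its start. C1GALT1 had 13.1 and 13.1 against 12.4 and 11.7 at chr7:7180774-7182408. GCNT1 had 13.8 and 16.2 against 14 and 8.2 at chr9:76394553-76396319. At GALNT10 the region chr5:154189345-154190597 had 13.1 and 13.1 against 12.3 and 13.5. GALNT12 had the weakest of these, 7.86 and 7.17 against 7.4 and 7.67, at chr9:98808032-98809562, 748 bp downstream of its start.

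Acetylation lay over the printed promoters of GCNT3, B3GNT3 and GALNT7 in all 4 libraries, as it did over those of C1GALT1 and GALNT3 and over 3 of the 4 GCNT1 starts. Of all 22199 protein-coding promoters, 50.8% were acetylated in all 4. The GALNT10 promoter was acetylated in 3 libraries and not in the first knockout library.

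H3K27ac at the MYRF sites themselves was measured as the base pairs covered by peaks in the 2000 bp around the MYRF summit. At the strong B3GNT3 site these were 1757 and 1862 bp in the control clone, against 1735 and 1754 bp in the knockout clone, and at the GALNT10 site 1773 and 1840 bp against 1783 and 1803 bp. The ST6GALNAC1 site had 1388 and 1487 bp against 1148 and 1374 bp. Among reproducible sites, both knockout libraries were below both control libraries at this site and at the strong B3GNT3 site. The nearest libraries of these sites were close, at 1388 and 1374 bp and at 1757 and 1754 bp. At the GCNT3 site 17125 bp upstream both knockout libraries were above both control libraries, at 2000 bp against 1938 and 1939 bp. The share of all MYRF sites with such a difference was not computed. The GALNT7 site had 1604 and 1435 bp against 1158 and 1611 bp, and the clones overlapped. The site in FCHO1 and the HPAF2 site near PCSK5 had no H3K27ac peak within this distance in any of the 4 libraries. Of the 6 shared sites, 4 overlapped an H3K27ac peak in all 4 libraries and 1 in none, against 85.4% and 3.90% of all shared MYRF sites.

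At the GCNT3 sites bound by MYRF in HPAF2 alone, the CFPAC1 clones were acetylated too. The site 17125 bp upstream had 1938 and 1939 bp in the control clone and 2000 bp in both knockout libraries, and the site 24543 bp upstream had 1172 and 1510 bp against 1748 and 779 bp. Of the 100 kept H3K27ac regions, 32 overlapped a FOS peak in both libraries, close to the 33.9% of all kept regions. Of the 147 mixed regions 3 did, or 2.04%, against 8.53% of all mixed regions. Kept regions were longer, with a median of 1366 bp over the genome against 314 bp for mixed ones, so overlap by length alone differs.

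**Figure D4:**
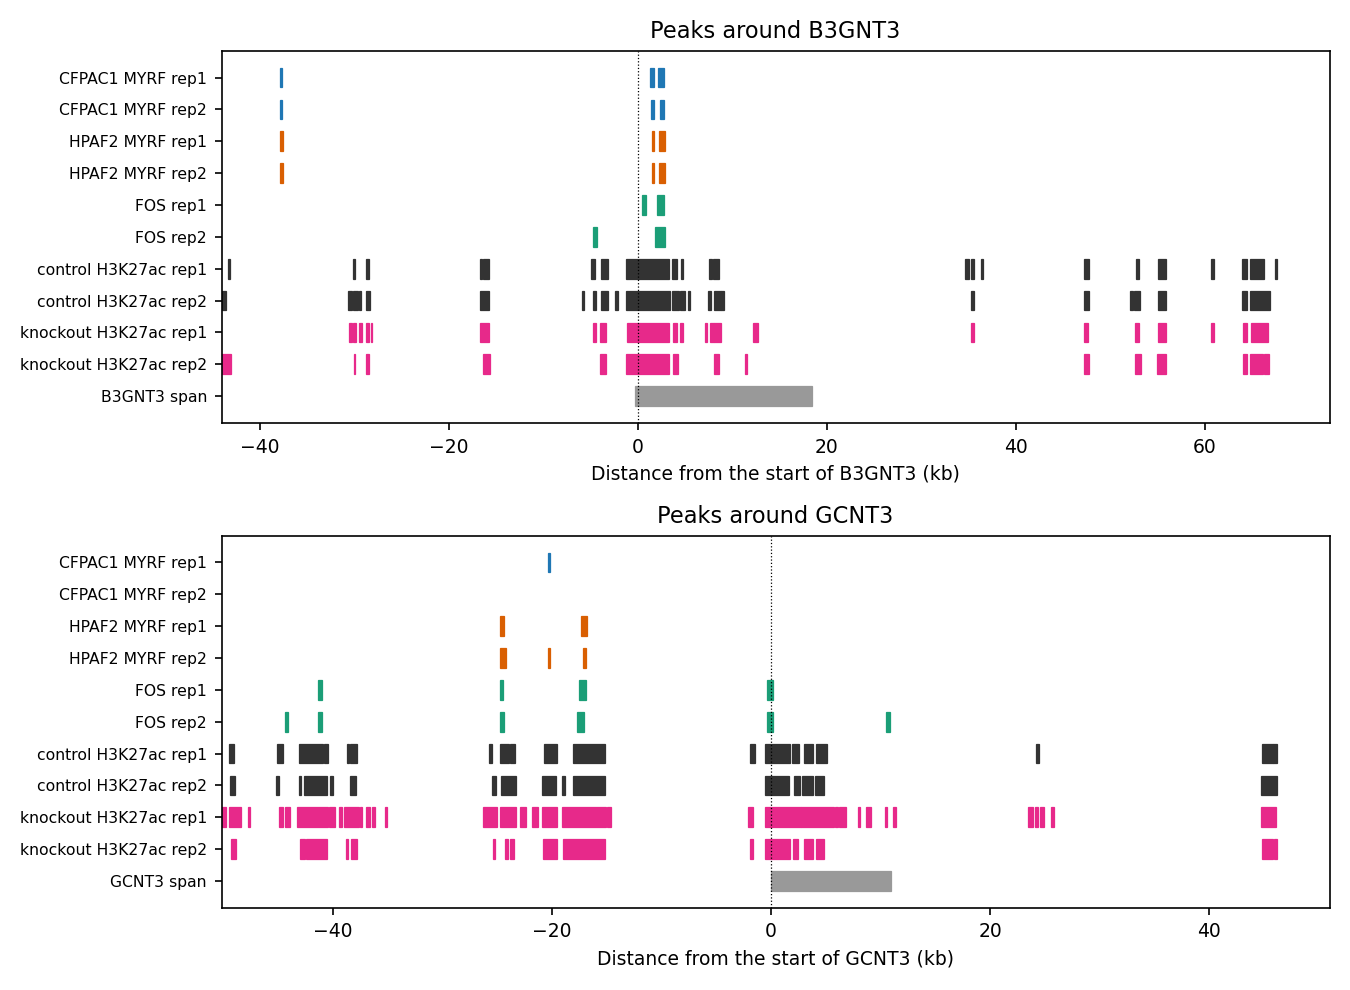
Peaks along the windows of B3GNT3 (top) and GCNT3 (bottom), drawn to scale by distance from the gene's start in kb (x axis), with 1 row for each of the 10 libraries and a grey bar for the gene span. The MYRF peaks near the B3GNT3 start lie inside an acetylated stretch and the one in FCHO1, at the left, does not, and the first knockout library shows added H3K27ac peaks at GCNT3.

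No single pattern covered the 10 genes. Taking MYRF in CFPAC1, MYRF in HPAF2, FOS, a lost region and a gained region as 5 marks, GALNT7 had all 5, a pattern found in 210 genes (1.05%). GALNT10 and ST6GALNAC1 had all but the gained region, a pattern found in 624 genes (3.11%). B3GNT3 had both MYRF marks and FOS with neither loss nor gain (781 genes, 3.90%), and GCNT1 and GCNT3 had HPAF2 MYRF and FOS (655 genes, 3.27%). GALNT3 and GALNT5 had FOS alone, the most common of these patterns (5840 genes, 29.1%). C1GALT1 had FOS and a gained region (1193 genes, 5.95%), and GALNT12 a gained region alone (351 genes, 1.75%). These shares take no account of window length. The windows of GALNT7 and GALNT10 were 255 and 330 kb, against a median of 124 kb for all genes. With windows of 10 kb, or with only peaks of -log10 q of at least 10, GALNT7 had no lost region.

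Across 40 other genes of the pathway, which hold further initiating, branching, sulfating and capping enzymes and genes that supply activated sugars, 5 had a MYRF site in CFPAC1 and 12 in HPAF2 (16.6% of all genes in either line), and 2, B4GALT4 and CHST4, had a shared one (9.19% of all genes). Of these 40, 34 had a FOS site, against 67.7% of all genes. In H3K27ac 11 were lower and 3 higher, against 22.3% and 9.02% of all genes. A lost region lay at 11 and a gained one at 9, against 21.9% and 15.3%. At CHST4, a sulfotransferase that acts on mucin-type chains, the shared site at chr16:71514737-71515554 had folds of 39.9 and 51.0 in HPAF2 (percentiles 99.4 and 99.7) and 4.52 and 4.81 in CFPAC1 (34.3 and 37.4). It ranked above every site of the 10 genes in HPAF2 and low in CFPAC1. The B4GALT4 site, chr3:119181759-119182509, lay inside the neighbouring gene UPK1B, and the window of ST6GALNAC1 overlaps that of ST6GALNAC2, so those 2 genes share peaks. Some of the 40 genes also have windows that overlap each other, so their counts are not all of separate places.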

How the data were processed

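Peak lists were analysed for 10 ChIP-seq libraries. A further sample, input DNA of HPAF2, was not analysed here. Per the submitters' processing notes, the tools included MACS2 2.1.0.20150731, Bowtie2 2.2.6, Trimmomatic 0.38 and SAMtools, with build GRCh38. The control used for calling CFPAC1 peaks is not given in the sources used here. Each deposited list gives a fold enrichment (a ratio), a -log10 p-value, a -log10 q-value and a score per peak, made by the authors for each library separately. There are no read counts, so precision from depth cannot be given.

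Gene spans came from RefSeq (GRCh38.p14) and promoter sequences from the matching table. A reproducible peak overlapped a peak of the other replicate by at least 1 bp. Covered base pairs are summed over peaks with summits in a window. Clones were compared by non-overlap of 2 against 2 libraries and by a two-sided exact permutation test. Calls were made on all 20037 protein-coding genes. The genes named are the 10 chosen genes, and pathway genes outside them only where both MYRF lines shared a site. Members and lists were chosen with earlier results of these data known. Marker genes were scored at either gene end because few had a promoter entry. Replicates carrying the same number did not deviate together (r = -0.2 over 18001 genes, across genes), so numbers were not used as pairs. Alternatives covered a stricter q, other windows, summit distance, scaling, merging gaps, replicate pairing and each library left out. Python 3.11.15, numpy 2.4.6, pandas 2.3.3, scipy 1.17.1 and bedtools 2.31.1 were used, and the code was tested on simulated data.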

Additional observations from a re-analysis of the deposited data

How the results depend on the processing

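Counts of the 10 genes depended on the strictness of the peaks. At -log10 q of at least 10, CFPAC1 MYRF sites were at 2 genes (7.52% of all genes) and HPAF2 sites at 3 (8.08%). Shared sites were at 1 (4.18%) and FOS sites at 9 (43.8%). H3K27ac was then lower at 1 gene, GCNT1 (23.1% of all genes), and higher at 0 (7.76%). The windows held 2 lost, 0 gained and 49 kept regions. Of all genes, 13.6%, 5.26% and 78.3% had at least 1 such region. Windows of 10 kb gave 3 lower genes (19.2% of all genes) and 0 higher ones (9.07%). They held 2 lost, 3 gained and 66 kept regions. Of all genes, 11.7%, 7.63% and 74.5% had at least 1 such region. Whole-list scaling left 0 lower genes, against 10.0% of all genes. Merging regions across gaps of up to 500 bp left 0 lost, 1 gained and 62 kept regions. Of all genes, 11.9%, 8.66% and 85.3% then had at least 1 such region. A replicate block, pairing libraries by their number, gave 3 lower and 2 higher genes, against 29.0% and 13.5% of all genes. Crossed numbers, chosen after seeing the data, gave 4 and 2, against 33.4% and 15.7%. Leaving out one library at a time gave 3 to 5 lower genes, 2 to 4 higher genes, 14 to 34 lost regions, 6 to 39 gained regions and 108 to 115 kept regions. Fewer libraries make these calls easier to meet: over all genes 37.0% to 40.6% were then lower and 20.1% to 25.5% higher. At least 1 lost region lay at 38.1% to 51.2% of all genes and a gained one at 27.3% to 48.0%. These region shares count genes, while the values for the 10 genes count regions, so they cannot be compared directly. Of the 39 gained regions, 19 were at GCNT3. Leaving out replicate 1 or replicate 2 of every MYRF and FOS group made a peak of the remaining library enough. CFPAC1 MYRF sites were then at 4 to 5 genes (22.7% to 24.7% of all genes) and HPAF2 sites at 6 (21.1% to 23.7%). Shared sites were at 4 (11.1% to 11.9%) and FOS sites at 9 to 10 (69.9% to 75.3%). Of 74 counts under alternatives, 43 were within 1.5 times the reported one and 31 were not. The depth of the libraries is unknown, so a peak missing from a list is not shown to be absent.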
